A study of Ambystoma mexicanum with 5 samples.

Results

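*Enpp2* and *C1qtnf7* are 2 genes for secreted proteins whose transcripts were more abundant in anterior than in posterior dermal cells of the uninjured axolotl (*Ambystoma mexicanum*) lower arm. They were taken as the rows AMEX60DD040394 (symbol ENPP2) and AMEX60DD045837 (symbol C1QTNF7) of a count table of 99088 genes, of which 20875 had enough counts to be tested. Both were chosen by their higher counts in the anterior than in the posterior libraries, which are the same libraries described here, so their levels and fold changes are given as a description and carry no p-value.

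*Enpp2* encodes autotaxin, a secreted lysophospholipase D that cuts the head group from lysophosphatidylcholine and so produces lysophosphatidic acid outside the cell. Lysophosphatidic acid is a signalling lipid that acts on G-protein-coupled receptors of the *Lpar* family, promotes the movement and contraction of fibroblasts and other cells, and is inactivated at the cell surface by lipid phosphate phosphatases such as *Plpp3*. *C1qtnf7* encodes CTRP7, a member of the C1q/TNF-related proteins, which are secreted relatives of adiponectin with a collagen-like stretch followed by a globular C1q domain. In mouse, CTRP7 has been studied mainly for its effects on metabolism. Both products act outside the cell that makes them.

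The libraries came from connective tissue cells of the limb skin, 2 from the anterior and 3 from the posterior side of the lower arm (zeugopod). All animals were given 4-hydroxytamoxifen as embryos, had grown to a length of 12 cm and carried a pair of tgSceI transgenes with the suffix Etnka. In Mmu.Prrx1:TFPnls-T2A-ERT2-Cre-ERT2 a mouse *Prrx1* enhancer drives a nuclear fluorescent protein and the inducible recombinase, and the other transgene, Caggs:loxP-GFP-loxP-mCherry, switches its colour on recombination, so that the sorted mCherry+ cells are those in which that enhancer was active at the time of treatment, and their descendants. Each replicate pooled 8 axolotls, or 16 lower arms, and a gap was left between the anterior and posterior skin pieces. The labels do not say whether anterior and posterior replicates of the same number came from the same axolotls. The libraries were QuantSeq 3′ libraries from 20.25 ng of RNA. This method reads the end of each polyadenylated transcript, so that a count does not grow with transcript length. Levels of different genes were set side by side on this basis. How completely the reads of each gene were counted was not tested.

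Library totals were 44317956 and 51408176 counts in anterior and 53927341 to 59062548 counts in posterior libraries, and the scaling factors of the TMM method lay between 0.9933 and 1.011. Levels are given as CPM, the counts of a gene brought to a common library total with these factors, and means as mean ± SD. Of the markers listed for connective tissue, 7 of 15 had a matching identifier, and their summed level was 10100 and 11100 CPM in anterior against 7080 to 7570 CPM in posterior libraries. Most of this sum was *Postn*, at 8090 and 9010 CPM in anterior against 4540 to 5090 CPM in posterior libraries. The other 6 summed to 2020 and 2080 CPM in anterior against 2470 to 2540 CPM in posterior libraries, which is the opposite order. Of the 7, 4 had a higher mean in anterior and 3 in posterior cells. *Postn* (higher in anterior) and *Fn1* (lower in anterior) passed the test used for all genes, as did 0.254% of all genes tested. *Prrx1*, *Pdgfra* and *Col1a1* were among those not matched and were not analysed here. A marker could be matched only if the study had called it as differing in these libraries. Each matched marker was therefore bound to differ, and markers that did not differ could not appear. None of the 5 markers listed for endothelium or the 4 for muscle was matched. Levels of the matched markers of other cells are given as a description, not as evidence of a difference in cell content. The 8 matched epidermal rows summed to 412 and 416 CPM in anterior against 675 to 910 CPM in posterior libraries. Of these, *Krt5*, 1 row of *Krt19* and *Col17a1* passed that test, each lower in anterior cells. These 3 of 8 stand against 0.254% of all genes tested, a contrast set by the matching through the study's calls. *Ocln* went the other way, with 94.5 and 119 CPM in anterior against 32.1, 41.1 and 53.9 CPM in posterior libraries, and did not pass (adjusted p = 0.0259). Of the other rows, *Krt17* had 0 counts in both anterior libraries and *Krt18* had 0 counts in the posterior libraries. The 2 matched immune markers of 8, *Ctss* and *Timd4*, summed to 23.9 and 43.1 CPM in anterior against 69.0 to 101 CPM in posterior libraries. *Rgs5*, the 1 matched marker of pericytes, was at 36.2 and 26.9 CPM in anterior against 9.80 to 14.6 CPM in posterior libraries, and *Ngfr*, the 1 matched marker of Schwann cells, at 44.7 and 42.5 CPM against 16.1 to 23.6 CPM. *Rgs5* and *Ngfr* were thus higher in the same libraries as *Enpp2* and *C1qtnf7*, and the part of any such cells in the results was not tested.

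*Enpp2* had 8244 and 9124 counts in the anterior libraries, against 1434, 2003 and 1936 counts in the posterior libraries. These counts correspond to 184 and 179 CPM in anterior, against 24.4, 34.2 and 36.0 CPM in posterior cells. The anterior libraries were nearly equal, posterior replicate 1 was the lowest of all, and the positions did not overlap. The level averaged 181 ± 3.69 CPM over the 2 anterior libraries and 31.6 ± 6.22 CPM over the 3 posterior ones, a 5.75-fold higher mean in anterior cells. The lowest anterior library was 4.96-fold above the highest posterior library, whereas libraries of one position differed by at most 1.47-fold. On the log2 scale, the fitted fold change of anterior over posterior cells was 2.52 with a standard error (SE) of 0.18. In bulk libraries of this kind, fewer cells that express a gene and less of its RNA per cell cannot be told apart.

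*C1qtnf7* had 3473 and 4723 counts in the anterior libraries, against 785, 512 and 439 counts in the posterior libraries. These are 77.5 and 92.5 CPM in anterior, against 13.4, 8.74 and 8.16 CPM in posterior cells. Anterior replicate 2 was the highest library, posterior replicate 1 stood above the other posterior libraries, and again the positions did not overlap. The mean was 85.0 ± 10.6 CPM over the 2 anterior libraries and 10.1 ± 2.86 CPM over the 3 posterior ones, or 8.42-fold higher in anterior cells. The lowest anterior library was 5.79-fold above the highest posterior library, and libraries of one position differed by at most 1.64-fold. The fitted log2 fold change was 3.07 (SE 0.24).

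**Figure D1:**
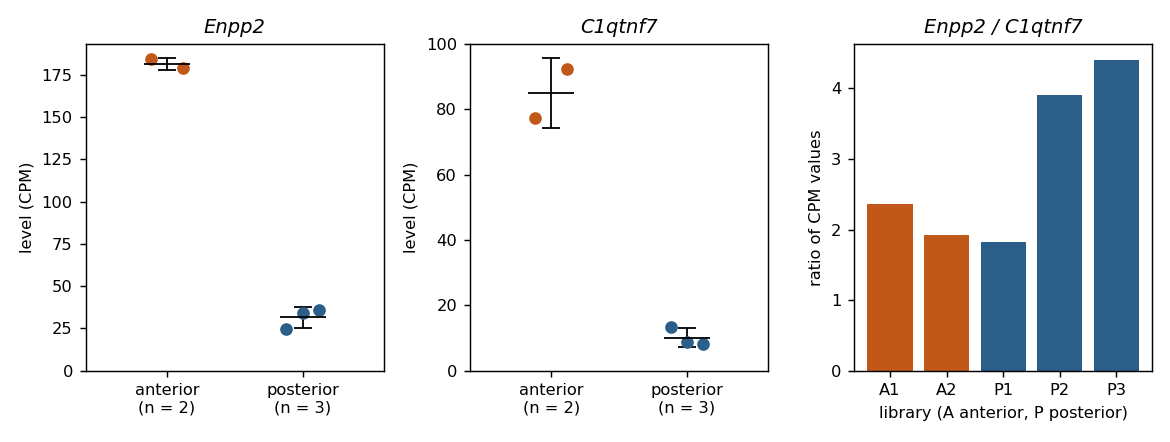
Level of *Enpp2* (left) and *C1qtnf7* (middle) in CPM, in which each point is a library and the bar and whiskers are the mean ± SD of 2 anterior and 3 posterior libraries, and the ratio of the CPM values of *Enpp2* to *C1qtnf7* in each library (right). Both genes were higher in every anterior library, while the ratio of 1.83 in posterior replicate 1 (P1) lay next to the anterior ratios of 2.37 and 1.93.

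A separation of this kind was common among all genes. Of the 20875 genes tested, 13.6% had every anterior library above every posterior library and 10.5% had the opposite order. By fitted log2 fold change towards anterior cells, the quantity that chose them, *C1qtnf7* was 392nd and *Enpp2* 525th of the genes tested. This ranking includes genes with few counts, such as *Krt18* at 9.96 (SE 2.00). Among the 2625 tested genes with a mean of at least 40.1 CPM, *C1qtnf7* was 1st and *Enpp2* 2nd. That cut is the mean of *C1qtnf7* over the 5 libraries. The posterior means of *Enpp2* (31.6 CPM) and *C1qtnf7* (10.1 CPM) lie below it, so both met it only through the anterior libraries. The ranks therefore describe how the genes were chosen and are not a result about them.

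Neither gene was confined to anterior cells. The lowest posterior counts were 1434 for *Enpp2* and 439 for *C1qtnf7*, far above the 3 counts, equal to 0.0508 to 0.0677 CPM, taken as the limit of detection. In anterior cells *Enpp2* ranked 659th and 675th among the 21628 and 22402 genes with a count, within the top 3.05%. In posterior cells it ranked 3933rd, 3010th and 2887th, between the top 14.3% and the top 19.2%. *C1qtnf7* was within the top 6.57% of genes in both anterior libraries and between the top 29.6% and the top 39.5% in posterior libraries. *Enpp2* was therefore a transcript of moderate abundance in posterior cells as well. The ranks depend on the counts of a single library and not on the scaling between libraries.

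**Figure D2:**
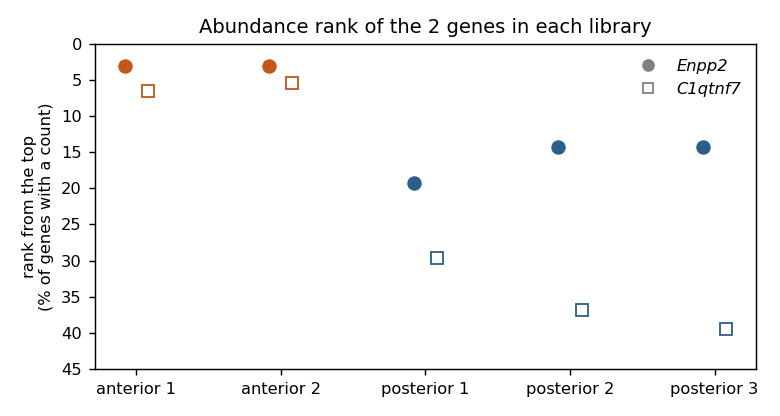
Abundance rank of *Enpp2* (filled circles) and *C1qtnf7* (open squares) in each library, as the percentage of genes with a count that were at least as abundant, with the most abundant at the top of the axis; anterior libraries are orange and posterior libraries blue. *Enpp2* ranked above *C1qtnf7* in each of the 5 libraries, and both ranked higher in the anterior libraries.

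*Enpp2* was the more abundant of the pair in every library, but the proportion varied. The ratio of *Enpp2* to *C1qtnf7* was 2.37 and 1.93 in anterior, against 1.83, 3.91 and 4.41 in posterior libraries. Posterior replicate 1 had the lowest *Enpp2* and the highest *C1qtnf7* of the posterior libraries, and its ratio fell below both anterior ratios. The ratio thus overlapped between the positions, and whether the fold changes of the 2 genes differed was not tested.

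The coefficient of variation of *Enpp2* was 2.04% in anterior and 19.7% in posterior cells, where counting alone would give 1.05% to 1.10% and 2.23% to 2.64%. For *C1qtnf7* it was 12.5% in anterior and 28.3% in posterior cells, where counting alone would give 1.46% to 1.70% and 3.57% to 4.77%. The counting error assumes independent reads, since no molecular identifiers are described. The anterior values rest on 2 libraries each. Posterior replicate 1 also had the highest summed level of epidermal markers, 910 CPM against 675 and 778 CPM in the other posterior libraries. The same held for the matched immune markers, with 101 CPM against 86.6 and 69.0 CPM. It also held for *Rgs5*, with 14.6 CPM against 11.6 and 9.80 CPM, and for *Ngfr*, with 23.6 CPM against 20.9 and 16.1 CPM. The part of such cells in the spread was not tested.

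The genes around *Enpp2* and *C1qtnf7* were then examined by function. Symbols are known here for the 283 identifiers that the study names among its differing genes, so a related gene could be found only if the study had called it in these libraries. Counts within such lists are not independent evidence of a direction. All genes were compared between the positions with edgeR's quasi-likelihood test, with p-values adjusted by the Benjamini-Hochberg method over all genes tested and a false-discovery rate of 0.01. At this level 53 genes (0.254%) passed, 28 of them (0.134%) higher in anterior and 25 (0.120%) higher in posterior cells.

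Of 41 genes listed for lysophosphatidic acid metabolism and signalling and for the ENPP family, 3 carried a symbol, and no *Lpar* receptor was among them. Besides *Enpp2* these were *Plpp3* and *Pla2g4c*. *Plpp3* (AMEX60DD019499), the phosphatase that removes the phosphate from lysophosphatidic acid at the cell surface, had 561 and 524 CPM in anterior, against 198, 252 and 198 CPM in posterior cells. All anterior libraries were above the posterior ones, as for *Enpp2*. *Plpp3* rose to 542 ± 26.1 CPM over anterior libraries, against 216 ± 30.8 CPM over posterior libraries (log2 fold change 1.33, SE 0.14, adjusted p = 0.00222). The call was lost whichever posterior library was left out, with adjusted p-values of 0.0263 to 0.0381 and log2 fold changes of 1.26 to 1.45. Such a loss was general. Over all genes, only 5, 2 and 3 passed without posterior replicates 1, 2 and 3, against 53 with all libraries. *Pla2g4c* (AMEX60DD023020), a phospholipase A2 that leaves lysophospholipids in the membrane, had 28.6 ± 1.46 CPM over anterior and 48.3 ± 6.55 CPM over posterior libraries and did not pass (log2 fold change -0.76, SE 0.19, adjusted p = 0.182). Transcripts of an enzyme that makes extracellular lysophosphatidic acid and of one that breaks it down were both more abundant in anterior cells. The first was chosen for that bias, and the second could be found only through the study's call. With 3 of 41 listed genes matched, the pair is no result about this metabolism as a whole. The median log2 fold change of *Plpp3* and *Pla2g4c* was 0.29, against 0.02 over all genes tested. It lies between 2 genes of opposite direction, both matched through the study's calls, and is no measure of a shift.

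A broader list of 20 genes of lipid metabolism gave 12 with a symbol, which include *Enpp2*, *Plpp3* and *Pla2g4c*. Of the 11 other than *Enpp2*, 6 had a higher mean in anterior and 5 in posterior cells. Their median log2 fold change of 0.68 was that of *Lpl*, the smallest positive value. The study had called each of the 11, so neither this median nor the share that passed measures a shift or an excess. Against 0.254% of all genes tested, 2 passed, both higher in anterior cells. Besides *Plpp3*, the other was *Prdx6* (AMEX60DD018273), a peroxiredoxin that also has phospholipase A2 activity. *Prdx6* had 1290 and 902 CPM in anterior, against 349, 424 and 323 CPM in posterior cells. It was the most abundant gene of the list in anterior cells, and its anterior libraries differed from each other more than those of *Enpp2*. *Prdx6* rose by 1.59 on the log2 scale (SE 0.17, adjusted p = 0.00246). It too lost the call with any posterior library left out (adjusted p = 0.0333 to 0.0581), in fits where only 2 to 5 of all genes passed. The remaining genes did not pass, with adjusted p-values from 0.0721 to 0.182. Those with a positive log2 fold change towards anterior cells were *Angptl4*, a secreted inhibitor of lipoprotein lipase, at 1.18 (SE 0.25), *Ugcg*, the glucosylceramide synthase, at 1.01 (SE 0.23), *Smpdl3a*, a relative of acid sphingomyelinase, at 0.84 (SE 0.17), and *Lpl*, lipoprotein lipase, at 0.68 (SE 0.16). Those with a negative value were *Elovl1*, a fatty acid elongase, at -0.63 (SE 0.13), *Abca8*, a lipid transporter, at -0.71 (SE 0.17), *Lipa*, the lysosomal acid lipase, at -0.76 (SE 0.16), and *Cyp2j2*, an arachidonic acid epoxygenase, at -1.44 (SE 0.33).

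Of 32 genes listed for the C1q domain family and its adiponectin receptors, 3 carried a symbol. The relatives of *C1qtnf7* were *C1qtnf1* and *Col8a1*, and neither passed in edgeR's quasi-likelihood test. Both had an unadjusted p under 0.05, as did 7.55% of all genes tested. Both carry a symbol only because the study called them in these libraries, so a low p was set by that choice. The shares over all genes are therefore no measure of an excess among relatives. With DESeq2, in which 1.45% of genes passed, 1 of the 2 did, and with limma-voom 0. *C1qtnf1* (AMEX60DD031409), which encodes the related secreted protein CTRP1, had 3.10 and 5.11 CPM in anterior, against 12.0, 9.61 and 17.3 CPM in posterior cells. Its libraries did not overlap and were ordered opposite to those of *C1qtnf7*, at roughly similar posterior levels. On the log2 scale the difference was -1.66 (SE 0.39, adjusted p = 0.14). *Col8a1* (AMEX60DD048332), a chain of the short collagen VIII that ends in a C1q domain, had 58.1 and 76.3 CPM in anterior, against 25.3, 32.8 and 18.6 CPM in posterior cells (log2 fold change 1.40, SE 0.24, adjusted p = 0.036). It passed in DESeq2, in a robust edgeR fit, in a fit with replicate number as a block and without the filter on low counts. Over the 13 alternatives the adjusted p of *Col8a1* ran from 3.61e-09 to 0.244.

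**Figure D3:**
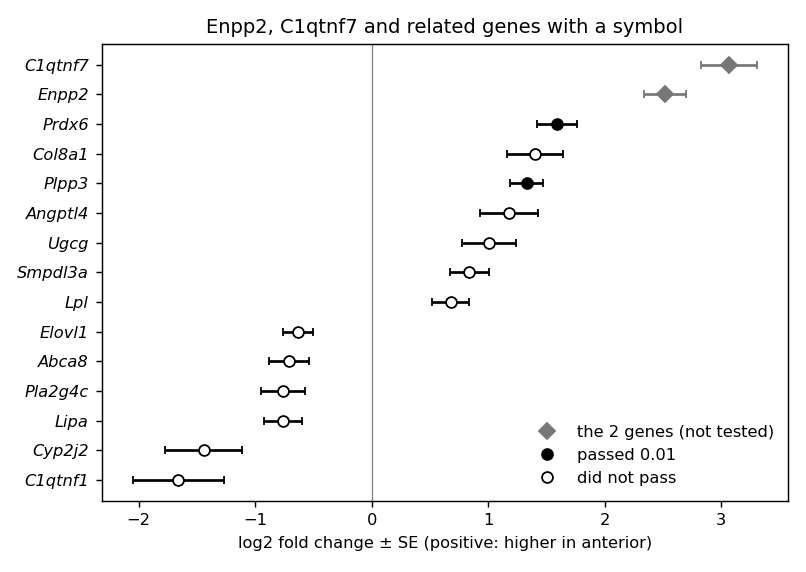
Log2 fold change ± standard error of *Enpp2*, *C1qtnf7* and the 13 related genes with a symbol, where positive values are higher in anterior cells; grey diamonds are the 2 genes chosen for this difference, filled circles passed in edgeR at a false-discovery rate of 0.01, and open circles did not. *Prdx6* and *Plpp3* passed, and 7 of the 13 related genes had positive values.

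Among 24 secreted signalling proteins and secreted antagonists, each of which carried a symbol, 24 of 25 rows were tested and 7 passed, 4 higher in anterior and 3 higher in posterior cells. Over all genes tested, 0.254% passed. The list was drawn up from the study's own calls, so its higher share was set by that choice and is no measure of an excess. The anterior ones included *Smoc2*, a secreted calcium-binding matrix protein, at 1.94 on the log2 scale (SE 0.16, adjusted p = 0.000625), *Rspo1*, a Wnt-enhancing R-spondin, at 1.50 (SE 0.17, adjusted p = 0.00442), and the guidance factor *Ntn1* (AMEX60DD030673), at 1.23 (SE 0.15, adjusted p = 0.00611). Each of these had a smaller log2 fold change than *Enpp2* (2.52) and *C1qtnf7* (3.07), which were themselves chosen for their anterior bias. A second *Ntn1* row (AMEX60DD016542) had 290 and 226 CPM in anterior, against 88.5, 153 and 106 CPM in posterior cells. That row did not pass (log2 fold change 1.16, SE 0.22, adjusted p = 0.0504). *Nts*, the neurotensin precursor, had the largest anterior fold change of the list, 3.26 (SE 0.60), from 16.3 and 16.9 CPM in anterior against 1.60, 0.495 and 3.09 CPM in posterior cells, and did not pass (adjusted p = 0.0469). The posterior ones were the BMP antagonist *Grem1*, with -3.24 (SE 0.18, adjusted p = 5.06e-05), the endothelial growth factor *Angpt1*, with -1.90 (SE 0.23, adjusted p = 0.00556), and *Igfbp5*, which binds insulin-like growth factors, with -0.98 (SE 0.12, adjusted p = 0.0047). *Tac1*, a tachykinin precursor, had 0 and 4 counts in anterior against 114, 100 and 54 counts in posterior libraries and did not pass (adjusted p = 0.522). Of the 7 genes that passed, only *Grem1* kept the call with each posterior library left out. The other 6 lost it without any 1 of the posterior libraries, in fits where only 2 to 5 of all genes passed.

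Whether rows next to *Enpp2* and *C1qtnf7* in the identifier series shared their bias was examined next. Identifier numbers are not coordinates, and the build of the files, AmexG_v6.0-DD, was not used here as a reference. In the RefSeq annotation of another assembly, UKY_AmexF1_1, *Enpp2* lies between *Ccn3* and *Taf2*, and *C1qtnf7* between *Cc2d2a* and *Cpeb2*. That annotation lists 4 transcripts for *Enpp2* and 1 for *C1qtnf7*, which a count per gene does not separate. Of the 20 identifiers within 10 numbers of *Enpp2*, 11 had a count and 10 were tested. Of the 20 around *C1qtnf7*, 9 had a count and 7 were tested. None of these 17 rows passed in edgeR's quasi-likelihood test, in DESeq2 or in limma-voom. Over all genes, 0.254% passed in edgeR and 1.45% in DESeq2, so the lack of calls among so few rows is not a result about them. In edgeR, 4 of the 17 had an unadjusted p under 0.05, against 7.55% of all genes tested. The median log2 fold change of the tested rows was 0.01 around *Enpp2* and -0.01 around *C1qtnf7*. The row just before *Enpp2* had 71.3 and 97.1 CPM in anterior, against 133, 116 and 132 CPM in posterior cells, which is the opposite order to *Enpp2*, and did not pass (log2 fold change -0.59, SE 0.17, adjusted p = 0.292). Other rows were ordered as the 2 genes were. The row just after *Enpp2* had 43 and 34 counts in anterior, against 28, 0 and 0 counts in posterior libraries (log2 fold change 2.33, SE 2.57). The row 2 numbers before *C1qtnf7*, with the lowest adjusted p of the 17, had a log2 fold change of 1.04 (SE 0.27, adjusted p = 0.199). Of the rows tested, 5 of 10 around *Enpp2* and 3 of 7 around *C1qtnf7* had a positive log2 fold change.

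A named gene lay within 30 identifiers of each. *Has2* (AMEX60DD040413), the hyaluronan synthase, is 19 numbers from *Enpp2*, with 7 protein-coding genes between them in the RefSeq annotation. *Has2* had 168 and 93.7 CPM in anterior, against 62.7, 76.0 and 49.2 CPM in posterior cells. Anterior replicate 1 was far above anterior replicate 2, in contrast to *Enpp2*. It stood at 1.06 on the log2 scale (SE 0.25, adjusted p = 0.14). Without anterior replicate 1 it was 0.58 (adjusted p = 0.765) and without anterior replicate 2 it was 1.42 (adjusted p = 0.00593), so that 1 library decided the value. Over the 13 alternatives the adjusted p ran from 2.71e-07 to 0.765. *Qdpr* (AMEX60DD045814), which regenerates the cofactor tetrahydrobiopterin, is 23 numbers from *C1qtnf7*, with 8 protein-coding genes between them. *Qdpr* had 138 and 129 CPM in anterior, against 69.1, 89.5 and 56.1 CPM in posterior cells, and did not pass (log2 fold change 0.90, SE 0.19, adjusted p = 0.0909). Both named neighbours carry a symbol because the study called them in these libraries.

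**Figure D4:**
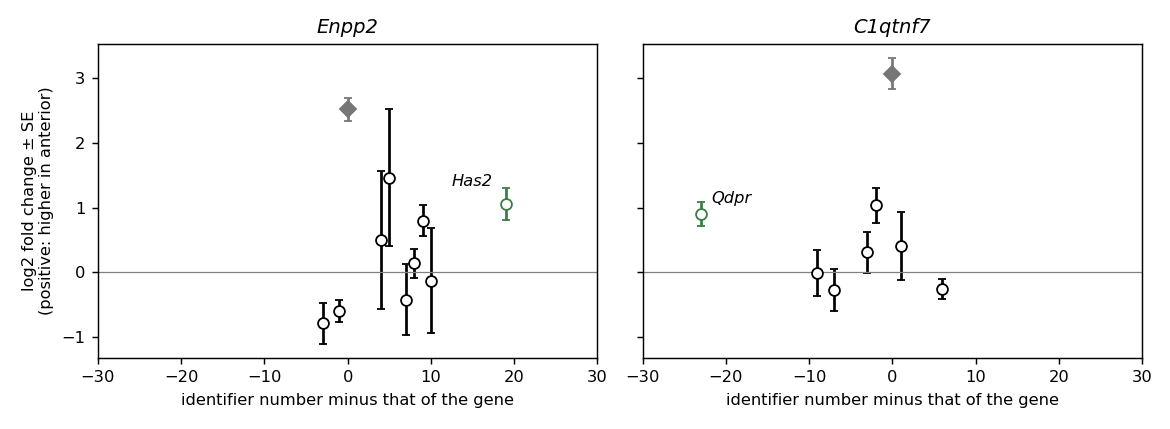
Log2 fold change ± standard error of the rows within 10 identifiers of *Enpp2* (left, 8 rows) and *C1qtnf7* (right, 6 rows) that had a mean of at least 1 CPM in either position, plotted against the difference in identifier number, where positive values are higher in anterior cells. The 2 genes are grey diamonds, *Has2* and *Qdpr* are green, and the black open circles lie between -0.79 and 1.46, below both genes. The cut leaves out tested rows with few counts, among them the row just after *Enpp2*, at 2.33 (SE 2.57), and rows at -7.39 and -6.62.

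Genes with a similar pattern were sought among tested genes with a symbol, by Pearson's r of log2 CPM over the 5 libraries. With 5 libraries in 2 positions, any gene with a clear difference between positions has a high r, so the values are a description and no p is given. *Enpp2* and *C1qtnf7* had an r of 0.9499 with each other. Of the 20874 other genes, 2.27% had at least this r with *Enpp2* and 2.06% with *C1qtnf7*, so that many genes were as much like either as they were like each other. The closest to *Enpp2* were *Papln* (0.9985), which encodes the matrix protein papilin, *Hhip* (0.9970), which binds Hedgehog ligands, *Epha4* (0.9967), a receptor for ephrins, *Rabl3* (0.9952), a small GTPase, and *Clk4* (0.9950), a kinase of splicing factors. *Papln* had 60.6 and 57.5 CPM in anterior, against 26.9, 29.5 and 30.4 CPM in posterior cells. The closest to *C1qtnf7* were *Chrd* (0.9981), a secreted BMP antagonist, *Cpamd8* (0.9981), of the alpha-2-macroglobulin family, *Kansl2* (0.9973), a subunit of a histone acetyltransferase complex, the LIM homeobox factor *Lhx2* (0.9970) and the BMP-related ligand *Gdf6* (0.9969). *Chrd* had 146 and 162 CPM in anterior, against 89.3, 75.7 and 77.0 CPM in posterior cells. The lists had no gene in common. Among all tested genes, with or without a symbol, 14 had an r with *Enpp2* at or above that of *Clk4*, and 8 had an r with *C1qtnf7* at or above that of *Gdf6*, the named genes included.

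**Figure D5:**
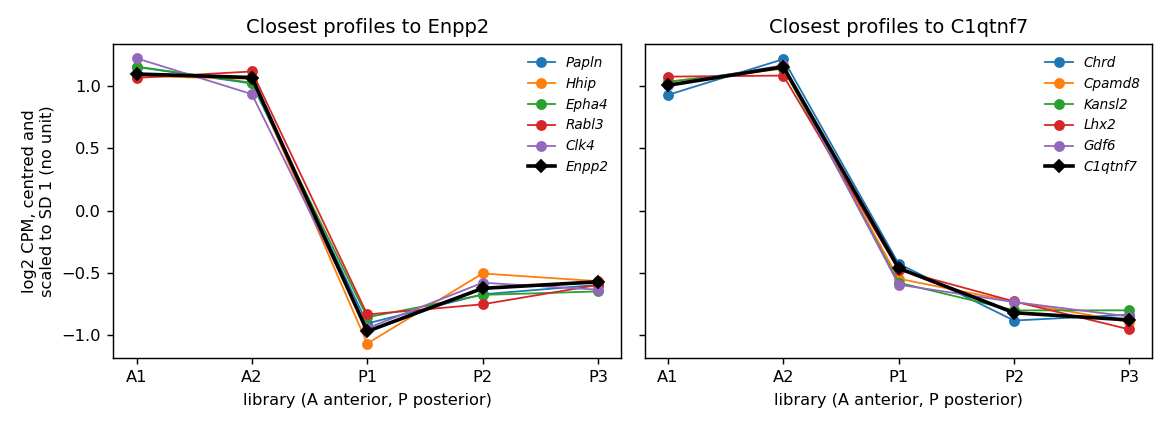
Log2 CPM of *Enpp2* (left) and *C1qtnf7* (right) in black, with the 5 genes of highest Pearson's r to each among tested genes with a symbol, centred and scaled to an SD of 1 for each gene; lines only join the values of a gene. Each gene was chosen for following the black line, with an r of at least 0.9950 on the left and at least 0.9969 on the right, so the likeness shown is that of the choice.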

How the data were processed

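Dermal cells sorted as mCherry+ were sequenced as QuantSeq 3′ libraries, 2 anterior and 3 posterior. The authors made the count table with Trimmomatic 0.39 (reads of at least 40 bases kept), HISAT2 on the AmexG_v6.0-DD assembly, allowing 5 alignments, and featureCounts. The treatment of reads that aligned more than once is not given in the sources used here, so that counts of close paralogues are uncertain. The deposited values are raw counts per gene and library, and columns were assigned through the sample labels.

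Counts were analysed with edgeR 4.0.16 in R 4.3.3 (filterByExpr, TMM, glmQLFit and glmQLFTest, position as the only term, all 5 libraries). Fold changes are anterior over posterior. The standard error is the absolute log2 fold change divided by the square root of F. The procedure was tested on simulated data, where it made few false calls and missed most of the changed genes. Those counts were drawn with the spread fitted to these libraries, so whether that spread is right was not tested. Symbols come from the study's tables, which pair 283 of 306 identifiers with one. Lists were matched in part, so that their counts cover matched genes only. The 2 genes and the lists were chosen with earlier results of these data known. Named genes were every matched member of the lipid and C1q lists, the secreted factors that passed or had the 2 largest changes in each direction, symbols within 30 identifiers, and the 5 highest correlations (prior count of 2). A gene that this rule names is not reported here. Limma-voom (limma 3.58.1), DESeq2 1.42.0, other scalings and filters, a robust fit, a replicate block, a false-discovery rate of 0.05 and each library left out were the alternatives. P-values set the difference between the positions against the spread between these pooled replicates, which edgeR estimates in part from other genes.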

Additional observations from a re-analysis of the deposited data

How the results depend on the processing

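The log2 fold change of *Enpp2* stayed between 2.50 and 2.65 over 8 alternatives of test, scaling, filter, fit and block, and between 2.36 and 2.62 with each library left out. That of *C1qtnf7* stayed between 2.97 and 3.10, and between 2.93 and 3.32. No tested gene of the lists by function, named neighbour or gene of similar pattern changed direction under any of the 13 alternatives. The cell type markers were not examined under the alternatives, so how their calls depend on them is not known here. The number of genes called between the positions (53) was 300 with DESeq2, 337 without the filter on low counts, 103 with a robust fit and 127 at a false-discovery rate of 0.05, and 2 to 62 with each library left out: 5, 2 and 3 without posterior replicates 1, 2 and 3. Those higher in anterior cells (28) numbered 138 with DESeq2, 44 with limma-voom, 168 without the filter, 56 with the robust fit, and 0 to 34 with a library left out. No label pairs the same-numbered libraries. Their change between replicates 1 and 2 had an r of -0.025 between positions, across genes, which does not show whether they shared axolotls. In a fit with this replicate block, 130 genes passed, 62 of them higher in anterior cells.

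Among related genes, the C1q list had 1 call with DESeq2, 2 without the filter, 1 with the robust fit and 1 with the replicate block, and 0 with any library left out. The lipid list of 11 had 7 with DESeq2 and 7 without the filter, and 0 to 2 with a library left out. The lysophosphatidic acid list had 0 to 1 with a library left out. The secreted list had 24 with DESeq2, 11 with limma-voom, 23 without the filter, 13 with the robust fit and 12 with the replicate block. It had 1 with any posterior library left out. Over all genes, 300 (1.45%) passed with DESeq2 and 74 with limma-voom. DESeq2 is the study's own test, and symbols come from the study's calls, so high shares of the lists with it were set by that choice. The 24 include *Cfc1*, which had counts in 1 posterior library only and was not tested in edgeR. The rows next to either gene had 0 calls under every alternative, but they are too few for this to be a result about them. With an anterior library left out, the lone one is assumed to vary like the posterior libraries. The causes of these changes were not tested. *Enpp2* and *C1qtnf7* had at least 439 counts in each library. Both anterior libraries had lower totals than every posterior library, and an influence of depth on the values was not tested.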
